A study of Mus musculus with 10 samples.

Results

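Transcription factor genes of nephron identity and repair were followed in mouse kidney after ischaemia-reperfusion injury. They were the 8 genes whose symbols are Hnf4a, Hnf4g, Pax2, Pax8, Sox9, Sox4, Lhx1 and Maf, each found once by Ensembl identifier among the 55359 genes of the deposited table, and all 8 passed the filter on low values that 13324 genes passed. The IRI group held 5 libraries from kidneys of male mice after 30 min of ischaemia and 24 h of reperfusion, and the sham group held 5 libraries from kidneys of mice after sham surgery. Each library was made from poly(A) RNA of kidney tissue, so fewer cells of a type and less RNA per cell cannot be told apart in any value below. The labels leave out strain, age, diet and the interval between sham surgery and sampling. They do not state that each library came from a separate mouse either. The p-values therefore rest on the spread between libraries, which may be technical.

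HNF4A and HNF4G are related nuclear receptors that bind DNA as dimers, and HNF4A is known as a driver of the differentiated proximal tubule, the segment that reabsorbs most filtered solute. PAX2 and PAX8 are paired-domain factors that act together in the making of nephrons, LHX1 is a LIM-homeodomain factor of early nephron patterning, and MAF is a large basic leucine zipper factor. SOX9 and SOX4 are HMG-box factors. SOX9 is known to switch on in tubule cells that take part in repair after injury, and SOX4 is a progenitor factor of the developing nephron.

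Sox9 and Sox4 were higher after IRI, Hnf4a, Hnf4g, Lhx1 and Maf were lower, and Pax8 was moderately higher. Of the 8 genes, 3 were called higher, 4 lower and 1, Pax2, was not called (edgeR, adjusted p under 0.05), where 34.5% of all tested genes were called higher, 32.4% lower and 66.9% in either direction. The FPKM of the groups did not overlap in 5 of the 8, against 55.3% of all tested genes. Calls and separation were thus frequent across the whole table, and the sizes and patterns of the changes are described below for each gene. FPKM is the read count divided by exonic length and by the library's total count. Fold changes are log2 values of IRI over sham from edgeR with TMM scaling, given ± SE. With library totals as the scale, log2 fold changes were higher by a median of 0.25, and 66.8% of called genes were higher, against 51.6% with TMM.

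**Figure D1:**
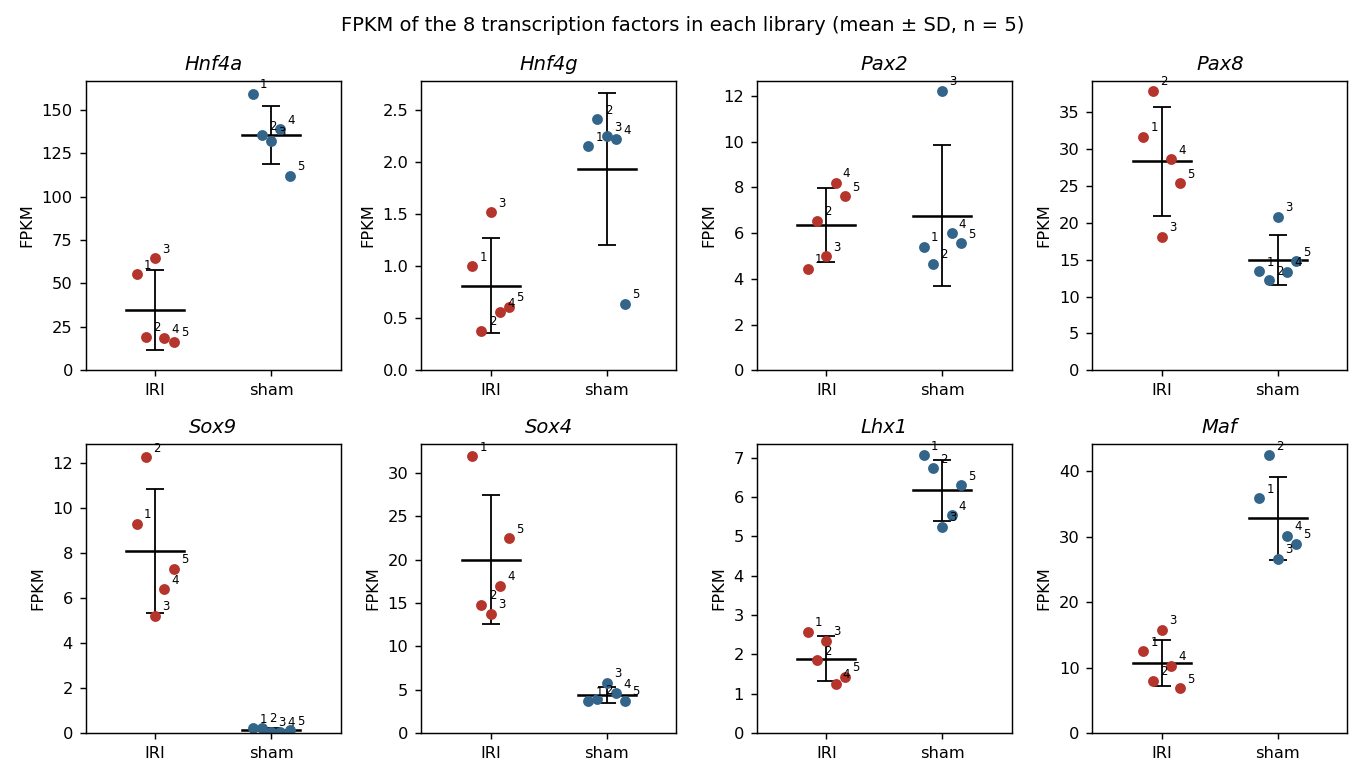
FPKM of each gene (y axis, from 0) in the 5 IRI and 5 sham libraries (x axis). Points are libraries with their replicate number, lines are means and bars SD. IRI lies wholly below sham for Hnf4a, Lhx1 and Maf and wholly above it for Sox9 and Sox4, and the groups overlap for Hnf4g, Pax2 and Pax8.

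Hnf4a has 2 transcription starts in RefSeq, an upstream one and a downstream one, and the counts per gene do not separate them. The sequences around both are shown because Hnf4a was the most abundant of the 8 genes in sham kidney and these runs differ between its starts. Each run covers 250 bases before to 50 bases after the start (RefSeq, build GRCm38.p6, plus strand, chr2:163506607-163506906 and chr2:163546905-163547204). Capitals mark the bases from the start on.
Hnf4a upstream start: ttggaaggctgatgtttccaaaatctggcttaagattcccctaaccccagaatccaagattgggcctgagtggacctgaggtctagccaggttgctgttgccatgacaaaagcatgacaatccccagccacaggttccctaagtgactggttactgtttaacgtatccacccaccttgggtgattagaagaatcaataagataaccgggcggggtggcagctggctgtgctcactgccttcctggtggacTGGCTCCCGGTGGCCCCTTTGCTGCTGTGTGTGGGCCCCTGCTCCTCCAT
Hnf4a downstream start: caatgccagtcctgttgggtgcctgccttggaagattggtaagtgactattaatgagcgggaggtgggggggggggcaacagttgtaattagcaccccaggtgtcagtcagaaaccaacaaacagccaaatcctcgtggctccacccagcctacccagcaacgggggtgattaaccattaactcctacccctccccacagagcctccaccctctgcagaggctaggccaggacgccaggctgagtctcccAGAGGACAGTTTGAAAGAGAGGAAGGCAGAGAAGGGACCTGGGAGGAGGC
The 8 runs of the 5 members with an entry in that table (Hnf4a, Pax2, Pax8, Lhx1 and Sox4) were searched on both strands for CAAAGTC of HNF4 factors, ACAAAG of SOX factors and TGANTCA of AP-1 factors. ACAAAG occurred once in each of 2 Pax2 runs, where 18.7% of all 32851 runs in the table held it. The letters of the HNF4 and AP-1 motifs, held by 4.44% and 7.81% of all runs, did not occur in any of the 8. A match is a description of letters and does not show binding.

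Hnf4a was the most abundant of the 8 genes in sham kidney and fell after IRI. Its FPKM was 55.2, 19.3, 64.6, 18.3 and 16.5 in IRI replicates 1 to 5, against 159, 135, 132, 139 and 112 in sham replicates 1 to 5. All IRI libraries lay below all sham libraries, and within IRI replicates 1 and 3 stood well above the other 3. Its log2 fold change was -2.19 ± 0.40 (edgeR adjusted p = 0.000437). It was -2.46 without IRI replicate 1 and -2.51 without IRI replicate 3. Hnf4a lies on chromosome 2 from 163348728 to 163414830 on the plus strand of the deposited annotation (GRCm39) and has 4828 exonic bases. An antisense gene, Hnf4aos, overlaps it on the opposite strand. Hnf4aos had 6 to 63 counts per library in IRI, against 206 to 313 counts in sham, with a log2 fold change of -3.64 ± 0.50 (edgeR adjusted p = 4.65e-05) and -4.49 without IRI replicate 1. No source here says whether strand was used in counting, and without strand the reads of this pair cannot be told apart. Hnf4aos summed to 116 counts in IRI and 1244 in sham, and Hnf4a to 13812 in IRI and 51868 in sham. Single libraries of Hnf4a had 1227 to 5400 counts in IRI and 8842 to 12154 in sham. These counts cannot show how far the overlap altered the values of either gene.

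Hnf4g, the paralogue of Hnf4a, was expressed at a far lower level and also fell. Its FPKM was 1.00, 0.38, 1.52, 0.56 and 0.61 in IRI replicates 1 to 5, against 2.15, 2.41, 2.25, 2.22 and 0.64 in sham replicates 1 to 5. Sham replicate 5 lay inside the IRI range, and the other sham libraries lay above every IRI library. The log2 fold change was -1.48 ± 0.42 (edgeR adjusted p = 0.00752), and -1.69 without sham replicate 5. These values rest on 13 to 69 counts per library in IRI and 28 to 118 in sham. Hnf4g lies on chromosome 3 from 3573090 to 3723112 on the plus strand.

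Maf, the next most abundant of the 8 in sham kidney, also fell. Its FPKM was 12.5, 8.00, 15.8, 10.3 and 6.86 in IRI replicates 1 to 5, against 35.9, 42.5, 26.6, 30.2 and 28.9 in sham replicates 1 to 5. No IRI library reached the lowest sham library. This was a log2 fold change of -1.86 ± 0.24 (edgeR adjusted p = 2.54e-05). Maf lies on chromosome 8 from 116409681 to 116434533 on the minus strand. MAF is also made by macrophages in the mouse. Beside the fall of Maf, the summed FPKM of 10 monocyte and macrophage markers was 90.5 to 131 in IRI and 44.6 to 62.9 in sham. None of the 10 was at 0 in every library of a group. Of the 8 tested, 3 were called higher, 1 lower and 4 not called, where 34.5% of all tested genes were higher and 32.4% lower. A sum is weighted to its most abundant genes, so it does not show that these markers rose as a set. Of the relatives of Maf among large and small Maf factors, Maff (3.88 ± 0.40) and Mafk (1.23 ± 0.18), small Maf proteins without a transactivation domain, were called higher.

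Lhx1 fell, and its log2 fold change had the smallest SE among the 4 lower genes. Its FPKM was 2.57, 1.85, 2.34, 1.25 and 1.43 in IRI replicates 1 to 5, against 7.06, 6.73, 5.24, 5.53 and 6.29 in sham replicates 1 to 5. The groups were far apart, and within IRI replicates 1 and 3 were again the highest. That log2 fold change was -1.95 ± 0.22 (edgeR adjusted p = 8.55e-06). Lhx1 lies on chromosome 11 from 84409110 to 84416361 on the minus strand.

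The PAX genes behaved differently from each other. Pax8 FPKM was 31.7, 37.9, 18.1, 28.6 and 25.4 in IRI replicates 1 to 5, against 13.4, 12.2, 20.8, 13.4 and 14.8 in sham replicates 1 to 5. IRI replicate 3 lay below sham replicate 3, and every other IRI library lay above all sham libraries. The log2 fold change of Pax8 was 0.68 ± 0.20 (edgeR adjusted p = 0.00830). Pax2 FPKM was 4.45, 6.55, 5.00, 8.20 and 7.61 in IRI replicates 1 to 5, against 5.40, 4.66, 12.2, 5.99 and 5.56 in sham replicates 1 to 5. The groups overlapped widely, with sham replicate 3 the highest of all 10 libraries. Its log2 fold change was -0.34 ± 0.24 (edgeR adjusted p = 0.230), and -0.02 without sham replicate 3 (edgeR adjusted p = 0.933). A p above the threshold does not show that Pax2 was unaltered. Pax8 lies on chromosome 2 from 24310572 to 24365611 on the minus strand, and Pax2 on chromosome 19 from 44744484 to 44826310 on the plus strand.

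Sham replicate 3 was the highest sham library for both PAX genes and the lowest for Lhx1 and Maf. Beside this, the summed FPKM of 7 collecting duct principal cell markers was 534 in sham replicate 3, against at most 306 in the other sham libraries, with none of the 7 at 0 across a group. Its part in the PAX values was not tested.

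Sox9 rose most of the 8 genes and was close to the detection limit in sham. Its FPKM was 9.31, 12.2, 5.21, 6.38 and 7.31 in IRI replicates 1 to 5, against 0.20, 0.23, 0.06, 0.05 and 0.12 in sham replicates 1 to 5. The lowest IRI library exceeded the highest sham library many times over. In counts, IRI libraries had 373 to 666 and sham libraries 3 to 18. The change was 5.64 ± 0.37 on the log2 scale (edgeR adjusted p = 2.45e-07), a 49.7-fold difference, and 0.323% of tested genes had a larger absolute change. The log2 value ranged from 5.44 to 6.00 when 1 library was left out. Sox9 lies on chromosome 11 from 112673050 to 112678586 on the plus strand.

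Sox4 was already expressed in sham kidney and rose less. Its FPKM was 31.9, 14.8, 13.8, 17.0 and 22.5 in IRI replicates 1 to 5, against 3.69, 3.91, 5.81, 4.61 and 3.70 in sham replicates 1 to 5. All IRI libraries lay above all sham libraries. The log2 fold change was 1.97 ± 0.25 (edgeR adjusted p = 2.51e-05), and 1.68 without IRI replicate 1, the library with the highest Sox4 value. Sox4 lies on chromosome 13 from 29132902 to 29137696 on the minus strand.

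**Figure D2:**
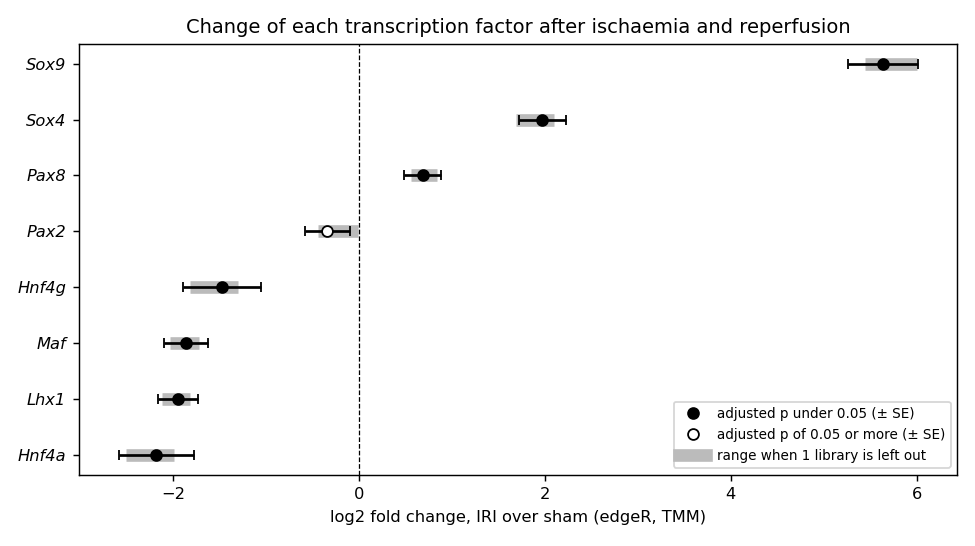
Log2 fold change of each gene, IRI over sham (x axis), with genes down the y axis. Points are edgeR estimates with SE bars, filled where the adjusted p is under 0.05, and grey bars span the estimates with 1 library left out. Sox9 stands at 5.64 and Hnf4a at -2.19, and Pax2 has an open point.

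The order of levels within the set changed between the groups. In IRI, mean FPKM was 34.8 ± 23.2 for Hnf4a, 28.4 ± 7.36 for Pax8, 20.0 ± 7.48 for Sox4, 10.7 ± 3.59 for Maf and 8.09 ± 2.77 for Sox9 (SD, n = 5). The lower IRI levels were 6.36 ± 1.62 for Pax2, 1.89 ± 0.567 for Lhx1 and 0.814 ± 0.455 for Hnf4g. Between neighbours in that order, Pax2 and Lhx1 alone had ranges that did not overlap. In sham, the order was Hnf4a at 136 ± 16.8, Maf at 32.8 ± 6.38, Pax8 at 14.9 ± 3.42, Pax2 at 6.77 ± 3.09 and Lhx1 at 6.17 ± 0.774 FPKM (SD, n = 5). Below them stood Sox4 at 4.34 ± 0.901, Hnf4g at 1.93 ± 0.730 and Sox9 at 0.132 ± 0.0811 FPKM. Ranges in sham did not overlap between Hnf4a and Maf, Maf and Pax8, Sox4 and Hnf4g, or Hnf4g and Sox9. The other neighbours in sham overlapped.

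Whether related factors changed by the same amount was asked with ratios of FPKM within each library, which do not depend on scaling between libraries. The log2 ratio of Hnf4a over Hnf4g was 5.33 ± 0.43 in IRI and 6.26 ± 0.68 in sham (SD, n = 5 each), so Hnf4a lost more than its paralogue did. The difference was -0.93, with adjusted p = 0.0159 over 6 ratio tests (exact two-sided permutation test). The highest IRI ratio, 5.79, lay just under the lowest sham ratio, 5.81, and without sham replicate 5 the difference was -0.63. The log2 ratio of Pax2 over Pax8 was -2.15 ± 0.50 in IRI and -1.21 ± 0.27 in sham, a difference of -0.94 (exact permutation test, adjusted p = 0.0159). Sox9 over Sox4 stood at -1.30 ± 0.59 in IRI and -5.27 ± 1.22 in sham, a difference of 3.98 (exact permutation test, adjusted p = 0.0159). With 1 added to each FPKM, the difference was -1.49 for Hnf4a over Hnf4g and 1.03 for Sox9 over Sox4 (exact permutation test, adjusted p = 0.0119 each). The added 1 is large beside the FPKM of Hnf4g and of Sox9 in sham and shrinks their changes. These 2 values therefore do not give the size of the differences. In each of these 3 ratios of FPKM the groups did not overlap, and the unadjusted p of 0.00794 was the smallest that 5 libraries against 5 allow.

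**Figure D3:**
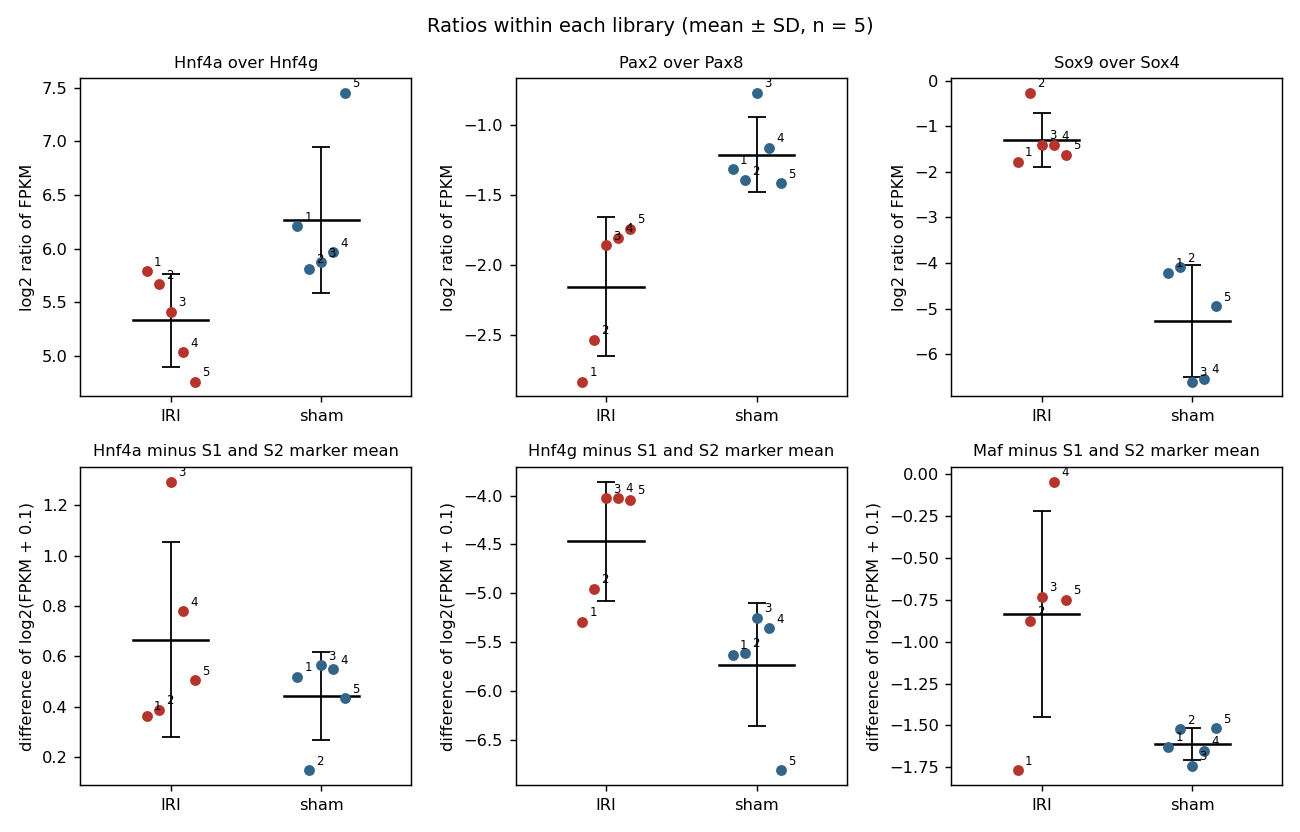
Ratios within each library for 5 IRI and 5 sham libraries (x axis), with replicate numbers, means and SD. The upper panels show log2 ratios of FPKM between related factors, and the lower panels the log2(FPKM + 0.1) of a factor minus the mean of the 13 proximal tubule S1 and S2 markers. IRI and sham are apart in the upper panels and overlap in the lower ones.

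Hnf4a, Hnf4g and Maf were set against markers of the S1 and S2 segments of the proximal tubule, a list of 13 transporters, receptors and enzymes, all of which were called lower. The summed FPKM of these markers was 1155, 396, 509, 224 and 255 in IRI replicates 1 to 5, against 2716, 3082, 2200, 2431 and 2233 in sham replicates 1 to 5. These sums are weighted to abundant genes, as the marker Slc34a1 alone had a mean of 214 FPKM in IRI and 1253 FPKM in sham. On the log2(FPKM + 0.1) scale, Hnf4a minus the marker mean was 0.67 ± 0.39 in IRI and 0.44 ± 0.17 in sham (SD, n = 5 each), a difference of 0.22 that did not pass the threshold (exact permutation test, adjusted p = 0.302). That does not show that Hnf4a and the markers fell alike, and with the median over markers the difference was 0.49 (exact permutation test, adjusted p = 0.0476). Hnf4g minus the marker mean was -4.47 ± 0.61 in IRI and -5.73 ± 0.63 in sham, a difference of 1.26, so Hnf4g fell less than the markers did (exact permutation test, adjusted p = 0.0238). Maf gave -0.83 ± 0.62 in IRI and -1.61 ± 0.09 in sham, a difference of 0.78 (exact permutation test, adjusted p = 0.0571). Without IRI replicate 1 the Maf difference was 1.01 (exact permutation test, adjusted p = 0.0190). Against 7 markers of segment S3, all called lower, the differences were 2.01 for Hnf4a, 3.05 for Hnf4g and 2.56 for Maf (exact permutation test, adjusted p = 0.00794 each).

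The 4 lower genes shared a pattern within IRI. Replicates 1 and 3 held the highest 2 values of the group for Hnf4a, Hnf4g, Lhx1 and Maf, and the lowest 2 for Pax2. The same libraries had the highest sums of S1 and S2 markers, 1155 and 509, against 224 to 396 in the other IRI libraries. They also had the lowest sums of principal cell markers, 296 and 417, against 474 to 678 in the other IRI libraries. Mitochondrial rRNA held 2.31% of counts in IRI replicate 1, against 0.214% to 0.450% in the other IRI libraries and 0.230% to 0.267% in sham. This pattern was seen in the values and not tested, and the part of segment markers or of RNA composition in it was not tested.

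**Figure D4:**
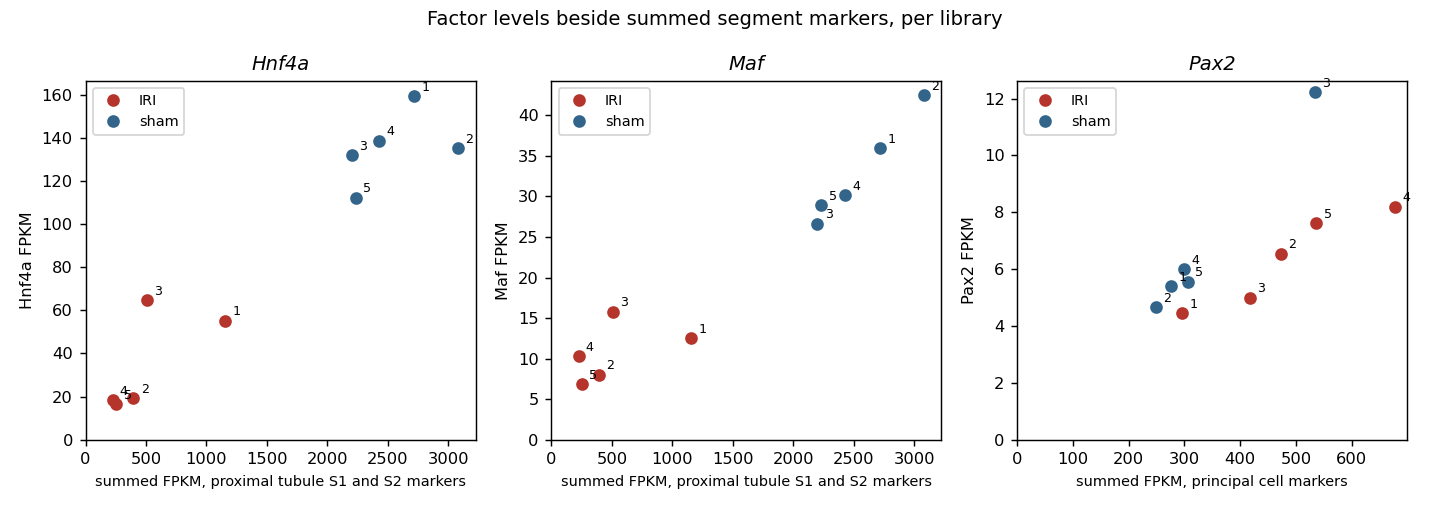
FPKM of Hnf4a, Maf and Pax2 (y axes) against summed FPKM of segment markers (x axes), with 1 point per library and its replicate number, IRI in red and sham in blue. IRI replicates 1 and 3 lie highest of the IRI libraries for Hnf4a, and sham replicate 3 lies apart for Pax2.

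Other transcription factors of the nephron, a list of 38 genes from all segments, were called at shares near those of all genes. Of 33 tested, 11 were higher, 12 lower and 10 not called, where 34.5% of all tested genes were higher and 32.4% lower (median -0.13, against 0.05 over all tested genes). Emx1, a homeobox gene, fell by 1.78 on the log2 scale. The higher members with the largest changes were Ehf (1.51 ± 0.40, or 2.13 without sham replicate 3), Grhl2 (1.38 ± 0.28) and Tfap2a (1.27 ± 0.19). EHF and GRHL2 are factors of epithelial cells, and TFAP2A is an AP-2 factor. With no filter, 12 of 37 members with counts were higher and 13 lower, where 19.3% and 18.0% of all genes in that fit were.

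Genes tied to hepatocyte nuclear factors such as HNF4 in liver or kidney were lower throughout. All 16 listed genes were tested and all 16 were called lower, with a median of -2.69, where 32.4% of all tested genes were lower. Among the largest falls were those of the organic anion transporter gene Slc17a3 (-3.48 ± 0.47) and the megalin gene Lrp2 (-3.16 ± 0.49, or -3.87 without IRI replicate 1). Of the 16 genes, 8 are also S1 and S2 markers, which is 50% of this list and 61.5% of the marker list, so the lists are not independent.

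Factors known in repair, dedifferentiation or growth mostly rose beside Sox9 and Sox4. Of 25 tested from a list of 28, 20 were higher, 1 lower and 4 not called, where 34.5% of all tested genes were higher and 32.4% lower (median 1.14, against 0.05 over all tested genes). Some of the 25, such as Hmga2 and Runx1 (mean of 0.148 FPKM in sham), passed the filter only through IRI libraries, which favours a call of higher. With no filter, 22 of 28 were higher and 1 lower, where 19.3% and 18.0% of all genes in that fit were. Hmga2, a chromatin protein of growing cells, had 2.78 ± 1.05 FPKM in IRI and 0.046 ± 0.0378 FPKM in sham (SD, n = 5 each), with a log2 fold change of 5.67 ± 0.45 (edgeR adjusted p = 7.82e-07), or 6.27 without sham replicate 1. Myc, a proto-oncogene of cell growth, had 21.7 ± 4.72 FPKM in IRI and 1.76 ± 0.490 FPKM in sham, a log2 fold change of 3.39 ± 0.22. Etv4, an ETS factor of RET signalling in the ureteric bud, rose by 3.23 ± 0.24. Its relative Etv5 was the lower one at -0.43 ± 0.16 (edgeR adjusted p = 0.0274), a call lost under library totals (-0.17, edgeR adjusted p = 0.312), under limma and the replicate block, and without any 1 of IRI replicates 2, 4 and 5 and sham replicates 1, 2 and 4 (-0.33 to -0.42).

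Genes of injured tubule cells rose throughout. All 12 were tested and called higher (median 2.82), where 34.5% of all tested genes were. Like the other lists, this one was chosen with earlier results of these data known. Krt20 and Havcr1, with means of 0.212 and 0.52 FPKM in sham, also passed the filter only through IRI libraries. The count of 12 is therefore a description and not a test. The keratin gene Krt20 rose by 10.43 on the log2 scale (11.53 without sham replicate 3), the NGAL gene Lcn2, a lipocalin, by 10.13 and Havcr1, which encodes the injury marker KIM-1, by 9.12.

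Genes that SOX9 is known to drive in mouse cartilage were mostly below the filter. Of 10 listed, only Sox6 passed the filter, and it was called lower (-0.54 ± 0.15, edgeR adjusted p = 0.00807), a call lost under library totals (-0.28, edgeR adjusted p = 0.153) and limma. With no filter, 2 of the 9 members with counts were higher and 3 lower, where 19.3% and 18.0% of all genes in that fit were. Col2a1, the gene of cartilage collagen, had 0.032 ± 0.0277 FPKM in IRI and 0.010 ± 0.010 FPKM in sham (SD, n = 5 each), and a difference was not detectable at this depth.

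Members of the same gene families were mostly below the filter. Of 41 other Sox, Pax, Maf and LIM-homeobox genes, 10 passed the filter, and 8 had 0 counts in every library. Of the 10, 5 were higher, 1 lower and 4 not called, where 34.5% of all tested genes were higher and 32.4% lower (median 0.45, against 0.05 over all tested genes). Besides Maff and Mafk, Sox7, an endothelial SOX factor, was higher, with 1.83 ± 0.334 FPKM in IRI and 0.654 ± 0.102 FPKM in sham (SD, n = 5 each; log2 fold change 1.24 ± 0.20). Beside Sox7, the summed FPKM of 8 endothelial markers was 102 to 181 in IRI and 92.2 to 139 in sham, with none of the 8 at 0 across a group. With no filter, 8 of 33 relatives with counts were higher and 4 lower, where 19.3% and 18.0% of all genes in that fit were. Scaling by library totals gave 8 higher and 0 lower of the 10, where it gave 47.4% higher, 23.6% lower and 71.0% in either direction over all tested genes.

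**Figure D5:**
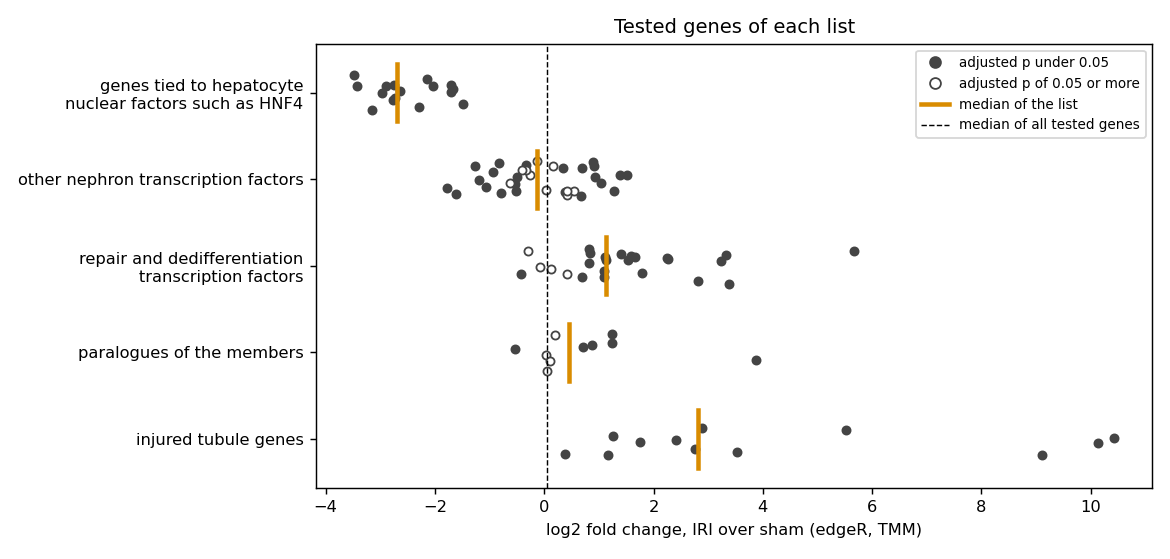
Log2 fold change, IRI over sham (x axis), of the tested genes of 5 lists (rows), 1 point per gene. Filled points have an adjusted p under 0.05, orange bars are list medians and the dashed line is the median of all tested genes at 0.05. Genes tied to hepatocyte nuclear factors lie wholly below 0 and injured tubule genes wholly above it.

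Genes whose pattern over the 10 libraries was most like that of each factor were found by the root mean square difference of centred log2 CPM. CPM is the count scaled to library size with TMM. Genes without a name, or with only a predicted, clone or Rik name, were left out of this search. The nearest genes lie below the median difference by the way they were chosen. Closest to Hnf4a were Aass, an enzyme of lysine breakdown (0.196), and Paqr9 (0.211), where the median difference over all tested genes was 1.43. Among the closest to Hnf4g was Ugt1a7c, a glucuronosyltransferase (0.365). Among the nearest to Lhx1 was Tinag, which encodes a tubular basement membrane protein (0.113). Maf lay nearest to Slc25a15, the mitochondrial ornithine carrier (0.175), and Prodh, which encodes proline dehydrogenase (0.182). Pax8 had Cers4, a ceramide synthase (0.133), and Ripk2, a kinase of NOD signalling (0.144), and Pax2 had Prom2 (0.172) and Cyfip2 (0.192). Sox4 was nearest to Cd33 (0.178) and Tgif1, a homeodomain repressor (0.216). For Sox9 the nearest were Sh2d5 at 0.631 and the metallothionein gene Mt2 at 0.645, where the median over all tested genes was 2.81.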

How the data were processed

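RNA of 10 kidney libraries, 5 IRI and 5 sham, was analysed from 1 deposited table. It holds whole-number counts per gene, which the authors deposited without normalization, and FPKM, which the authors deposited scaled to exonic length and to the library's total count (100% of values matched within 0.0051 units or 0.1%). The submitters' processing notes list GRCm39, cutadapt 1.9.1, HISAT2 2.0.1 and HTSeq 0.6.1, with no role for any. Exonic length and coordinates are those of the table. Symbols were matched by identifier for 52083 of 55359 genes. Totals were 13147899 to 18603272 counts per library, TMM factors 0.998 to 1.14 in IRI and 0.895 to 0.941 in sham.

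The 13324 genes that reached 1 FPKM in 5 libraries were tested on counts by edgeR 4.0.16 (R 4.3.3, quasi-likelihood test, TMM), with Benjamini-Hochberg adjustment over all of them and calls at an adjusted p under 0.05. SE was taken as the log2 fold change over the root of the F statistic. The fit was also run on simulated counts, with the spread of the sham libraries in both groups and few genes changed. The data differ from that setting, so the run does not show how well the fit performs on them. Ratios within libraries were tested by exact two-sided permutation over all assignments of 5 of the 10 libraries, with p adjusted over 6 tests. Alternatives were other scalings and filters, DESeq2 1.42.0, limma 3.58.1 on log2(FPKM + 1) and log2(FPKM + 0.1), a replicate block and leaving out each library.

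The members and lists were chosen with earlier results of these data known. Besides the members, named genes were the 2 nearest in pattern per member, with predicted and unnamed genes left out. From each list they were up to 3 called higher and 3 called lower with a mean of at least 1 FPKM. Some genes that this rule names are not reported here. Hnf4aos and Col2a1 were named after their values were seen. Promoter sequences are from RefSeq (GRCm38.p6), and no coordinate was converted between builds.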

Additional observations from a re-analysis of the deposited data

Results flagged for a closer look

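Among 28 groups of 5 values examined, 5 held a library far from the other 4 by Dixon's criterion, which chance gives in about 1 of 20 groups. Hnf4g was low in sham replicate 5, at 0.64 FPKM, against 2.15 to 2.41 FPKM in the other sham libraries. The same library stood apart in the log2 ratio of Hnf4a over Hnf4g (7.45, against 5.81 to 6.21 in the other sham libraries) and in Hnf4g minus the mean of S1 and S2 markers (-6.81, against -5.63 to -5.25), so these 3 share 1 low Hnf4g count. Pax2 was high in sham replicate 3, at 12.2 FPKM, against 4.66 to 5.99 FPKM in the other sham libraries. The log2 ratio of Sox9 over Sox4 was high in IRI replicate 2, at -0.27, against -1.78 to -1.40 in the other IRI libraries.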

How the results depend on the processing

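All 8 genes kept their direction and their side of the threshold under 18 alternatives each. Log2 fold changes ranged from -2.51 to -1.96 for Hnf4a, -1.82 to -0.68 for Hnf4g, -2.13 to -1.33 for Lhx1, -2.04 to -1.57 for Maf, -0.44 to -0.02 for Pax2, 0.56 to 0.93 for Pax8, 1.68 to 2.20 for Sox4 and 2.96 to 6.00 for Sox9. For Hnf4g, Lhx1, Maf and Sox9 the values nearest to 0 were those of limma on log2(FPKM + 1). Genes called numbered 4221 to 6322 higher and 3139 to 5486 lower, against 4599 and 4320. The labels do not say whether replicate numbers pair the libraries. Libraries of the same number did not share deviations from their group means (correlations -0.247 to 0.0567 over 5 pairs), which cannot show that they were unpaired. A replicate block changed no call of the 8 genes. As a block in the ratio tests, sign flips over 5 pairs cannot give p under 0.0625, and the differences -0.93 (Hnf4a over Hnf4g), -0.94 (Pax2 over Pax8), 3.98 (Sox9 over Sox4) and 1.26 (Hnf4g against markers) had adjusted p = 0.0938 (exact sign-flip test). Leaving out 1 library gave -1.05 to -0.63, -1.05 to -0.77, 3.64 to 4.27 and 0.99 to 1.47 for these. On log2(FPKM + 1), Hnf4a over Hnf4g gave -1.49 and Sox9 over Sox4 gave 1.03, both past the threshold. The added 1 shrinks the changes of Hnf4g (-0.68 by limma on that scale, against -1.48 in edgeR) and Sox9 (2.96, against 5.64). Those ratio values therefore do not give the size of the differences. For Hnf4a against markers the difference was 0.07 to 0.30 with 1 library left out, and passed the threshold at 0.49 with the median over markers and 2.01 with S3 markers. For Maf it was 0.58 to 1.01 with 1 library left out, 1.05 with the median and 2.56 with S3 markers. The cause of these changes in the differences against markers was not tested. Lower repair factors numbered 0 under library totals, limma with either pseudocount and the replicate block, and 0 to 1 with 1 library left out. Relatives of the members numbered 8 higher under library totals, limma with either pseudocount and no filter, against 5, and 0 lower under library totals and limma, 2 with filterByExpr and 4 with no filter, against 1. Cartilage genes numbered 1 higher with filterByExpr and 2 with no filter, against 0, and 0 lower under library totals and limma and 3 with no filter, against 1. Prom2, which was not called, turned positive under library totals (0.18), limma on log2(FPKM + 1) (0.17) and log2(FPKM + 0.1) (0.22), and with 1 library left out ranged from -0.18 to 0.21. The calls of Cers4 and Ripk2 were lost under the replicate block (0.55 and 0.49), and that of Ripk2 also without IRI replicate 1, 2 or 4 (0.43, 0.44 and 0.50).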

Other observations

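Markers of other cells were summed in FPKM beside the 8 genes. Their calls stand beside shares of 34.5% called higher and 32.4% called lower over all tested genes. Several of the lists lay near or below those shares. Podocyte markers summed to 163 to 199 FPKM in IRI and 63.9 to 111 in sham, with 5 of 7 called higher and 0 lower. Thick ascending limb markers summed to 1431 to 2623 FPKM in IRI and 785 to 1737 in sham, with 2 of 7 higher and 5 lower. Distal convoluted and connecting tubule markers summed to 99.2 to 166 FPKM in IRI and 190 to 302 in sham, with 5 of 6 lower. Intercalated cell markers summed to 127 to 198 FPKM in IRI and 99.95 to 115 in sham, with 3 of 6 higher and 2 lower. Of the principal cell markers 6 were tested, with 1 higher and 1 lower, and of the endothelial markers 8, with 4 higher and 1 lower. Fibroblast and pericyte markers summed to 65.2 to 225 FPKM in IRI and 43.7 to 62.4 in sham, with 2 of 6 tested higher and 1 lower. Neutrophil markers summed to 20.1 to 104 FPKM in IRI and 0.94 to 3.32 in sham, with all 4 tested higher and Ly6g at 0 in every sham library. All 7 neutrophil markers together summed to 0.94 FPKM in sham replicate 4. The 4 tested ones therefore passed the filter only with the help of IRI libraries, which favours a call of higher. Their count cannot be set against the share over all tested genes. Of 8 tested monocyte and macrophage markers 3 were higher and 1 lower. T and NK cell markers, none of which passed the filter, summed to 0.54 to 1.45 FPKM in IRI and 2.28 to 4.40 in sham. B and plasma cell markers summed to 2.99 to 4.65 FPKM in IRI and 8.57 to 14.6 in sham, with 1 tested and lower and Ms4a1 at 0 in every IRI library. The part of these cells in the values of the 8 genes was not tested.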
